A study of Mus musculus with 6 samples.

Results

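Dyneins are minus-end-directed microtubule motors, and the genes described here are the 36 protein-coding dynein subunit genes whose names begin with Dnah, Dnaic, Dnal, Dync or Dynl. They stood among 22046 protein-coding rows, and 55711 rows in all, of a mouse testis expression table. By name, 20 were axonemal subunits (15 Dnah heavy chains and 5 Dnaic, Dnal or Dnali chains) and 16 were cytoplasmic subunits (7 Dync chains and 9 Dynl light chains). The study set testes labelled Tmc7 knockout against testes labelled heterozygote, both on the C57BL6 strain, with 3 libraries of each. TMC7 belongs to the transmembrane channel-like proteins. The allele, the age of the animals and whether each library came from a separate animal are not given in the labels, so a p-value here reflects no more than the spread among these libraries, part of which may be technical. The libraries labelled knockout are called KO1, KO2 and KO3 below, and the heterozygous controls Het1, Het2 and Het3. All values describe RNA of whole testis, in which fewer cells of a type and less RNA per cell cannot be told apart.

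In the sperm flagellum, axonemal dyneins sit in rows on the microtubule doublets and slide them past each other to produce the beat. Outer arms set power and beat frequency, and inner arms shape the bend. Cytoplasmic dynein 1 carries cargo toward microtubule minus ends and helps move the manchette and Golgi-derived vesicles of the elongating spermatid, and cytoplasmic dynein 2 returns intraflagellar transport trains to the base of cilia. The small light chains of the Dynll, Dynlrb and Dynlt families are shared among these complexes.

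The unit was FPKM, reads per kilobase of gene, divided by a library size. The size implied by the values was not the read total. It was 19497384 against 18140921 reads in KO3 and 16450310 against 17059486 reads in Het1. It was above the read total in KO3 and Het3 and below it in KO1, KO2, Het1 and Het2. Percentages of all reads are of the read totals, so they are not on the FPKM scale. Depth was 17397662 to 19343479 reads in KO libraries and 17059486 to 18629233 reads in Het libraries, and the 36 genes together held 0.872%, 1.03% and 0.938% of the reads in KO1 to KO3 and 0.807%, 0.909% and 0.998% in Het1 to Het3. Tmc7 itself was at 43.8, 41.9 and 35.1 FPKM in KO1 to KO3 and at 39.1, 37.7 and 37.2 FPKM in Het1 to Het3 (log2 difference 0.08, SE 0.10, limma adjusted p = 0.885), so its transcript level does not check the genotype labels. Elongated spermatid markers, among them Tnp1, Prm1 and Akap4, summed to 18361, 10859 and 9489 FPKM in KO1 to KO3. In Het1 to Het3 they summed to 21496, 17608 and 12621 FPKM. All 15 of them had lower means in KO (median log2 difference -0.42), and 0 passed the test. Round spermatid markers summed to 678, 542 and 560.0 FPKM in KO1 to KO3 and to 701, 626 and 620.1 FPKM in Het1 to Het3. Lower means in KO were also found for 8 of these 9 (median -0.16), with 0 passing. The same held for 9 of 10 spermatocyte markers (349 to 402 FPKM summed in KO libraries and 396 to 440.0 FPKM in Het libraries, median -0.21), with 0 passing. By log2 difference, 5 of 9 spermatogonium markers were higher and 4 lower in KO (median 0.07), and 0 passed. All 9 Sertoli cell markers had higher means in KO (median 0.25), and 0 passed. They summed to 481, 621 and 626 FPKM in KO1 to KO3 and to 496, 478 and 508 FPKM in Het1 to Het3. The part of these markers in the dynein values was not tested. Of 6 markers of multiciliated epithelium, Mcidas, Gmnc and Foxn4 were at most 0.0256, 0.0553 and 0.185 FPKM in any library. Ccno was at 1.04 to 1.62 FPKM, Foxj1 at 36.7 to 58.7 FPKM and Deup1 at 56.1 to 87.4 FPKM.

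No dynein subunit gene passed the test between KO and Het testes. Of the 36 genes, 33 averaged 0.5 FPKM or more across all 6 libraries and were tested with limma on log2(FPKM + 1), together with 19168 genes in all and with Benjamini-Hochberg adjustment over all of them. At an adjusted p under 0.05, 0 of the 33 were called, against 0 of 19168 genes (0%), and the smallest adjusted p of a dynein gene was 0.868. Without adjustment, 0 of 33 had a p under 0.05, where 741 of all genes (3.87%) did. Without KO1 these counts were 1 dynein gene, Dynlt3, and 3493 of 19211 genes (18.20%). By limma-voom on the recovered reads 0 of 36 dynein genes and 1 of 20556 genes in all were called, and 1 dynein gene, Dynlt1a, had a p under 0.05 before adjustment. The KO and Het values failed to overlap for 1 of 33 dynein genes, Dynlrb1, against 8.56% of all genes (4.15% with KO higher and 4.41% with KO lower).

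The intervals give a range for the difference of each tested gene, based only on the spread among these libraries. Of the 33 tested genes, 27 had a 95% interval of the log2 difference that lay within 0.5 in both directions, among them all 17 tested axonemal genes, and 32 had one within 1. Dynlt1a was the exception. The median SE was 0.13. Without Dynlt1a the differences ran between -0.21 (Dynlt3) and 0.18 (Dync1h1). Both ends rest in part on single libraries. Dynlt3 was at -0.42 without KO1 and -0.06 without KO3, and Dync1h1 was at 0.28 without KO1 and 0.03 without KO2. Axonemal genes had a median log2 difference of 0.01 (10 higher and 7 lower in KO) and cytoplasmic genes of -0.06 (4 higher and 12 lower). Over all genes tested the median was -0.01 (9315 higher and 9853 lower). Without the near-identical Dynlt1 genes, a step added after the data were seen, the cytoplasmic median was -0.03, with 8 of 12 lower. Differences on this scale understate the change of genes with low values.

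**Figure D1:**
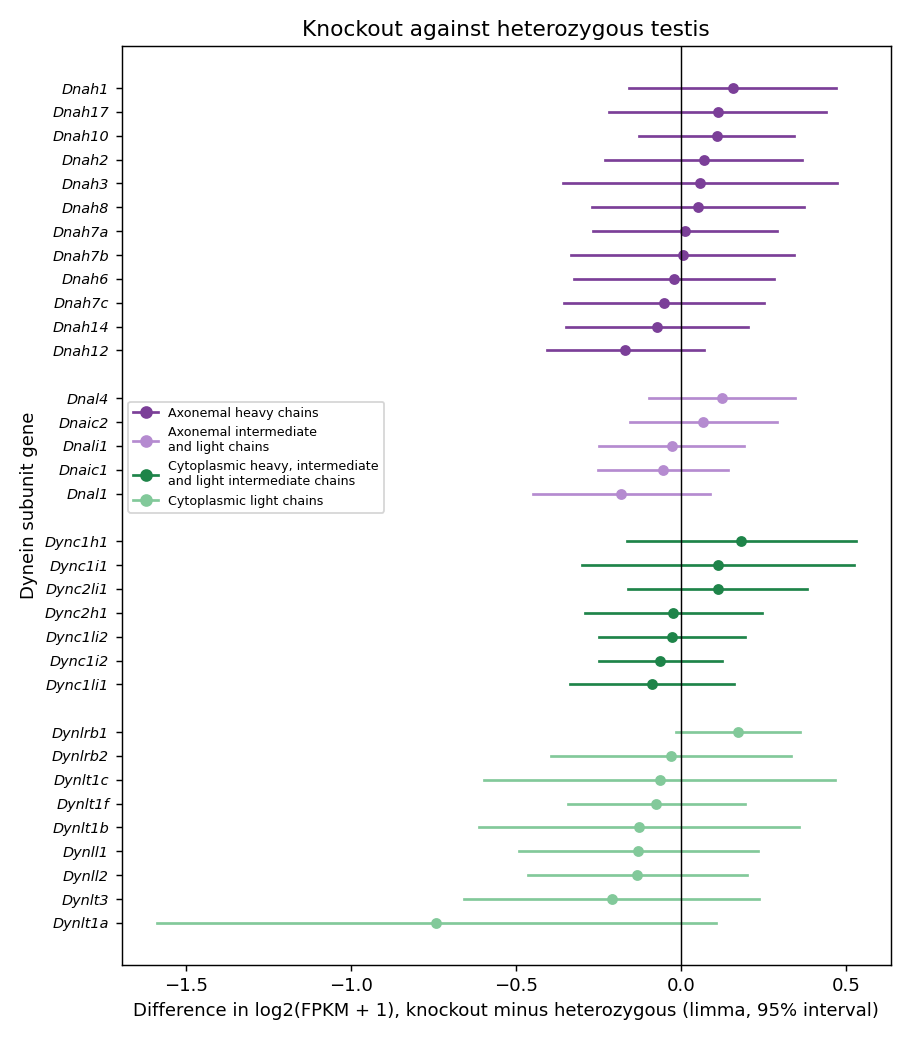
Log2 difference in FPKM + 1 between knockout and heterozygous libraries for the 33 tested dynein genes, with the limma 95% interval, coloured by class and sorted by size within it. Every interval includes 0, and the widest, that of Dynlt1a, spans -1.59 to 0.11.

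Among heavy chains of the outer arm, the sperm types were high and the other types near 0. Heavy chains carry the motor domain that hydrolyses ATP and steps along the microtubule. Dnah8 and Dnah17, the outer arm heavy chains of sperm flagella, were highest. Dnah8 (chromosome 17, 30624354 to 30875264, GRCm38) stood at 158, 189 and 147 FPKM in KO1 to KO3 and at 140.0, 161 and 175 FPKM in Het1 to Het3, with the groups overlapping (log2 difference 0.05, SE 0.14, limma adjusted p = 0.940). Dnah17 (chromosome 11, 118021723 to 118130634) was at 51.6, 71.2 and 56.4 FPKM in KO1 to KO3 and at 49.2, 56.3 and 59.2 FPKM in Het1 to Het3 (0.11, SE 0.14, adjusted p = 0.879). Within each group the lowest and highest libraries were further apart than the group means. Dnah8 ranked 251 among protein-coding genes by mean FPKM and Dnah17 ranked 1041. The Dnah8 to Dnah17 ratio varied little, at 3.06, 2.65 and 2.61 in KO1 to KO3 and at 2.85, 2.86 and 2.95 in Het1 to Het3.

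The outer arm heavy chains of airway and other motile cilia were near 0. In humans, mutations of DNAH5, DNAH9 and DNAH11 cause ciliary disease. Dnah9 was at 0.520, 0.615 and 0.389 FPKM in KO1 to KO3 and 0.560, 0.372 and 0.463 FPKM in Het1 to Het3. Dnah5 was at 0.189, 0.454 and 0.249 FPKM in KO1 to KO3 and at 0.175, 0.228 and 0.349 FPKM in Het1 to Het3. Dnah11 was at 0.0805, 0.0758 and 0.0213 FPKM in KO1 to KO3 and at 0.0799, 0.0822 and 0.0504 FPKM in Het1 to Het3, from 6 to 22 reads a library. None of the 3 averaged 0.5 FPKM, so they did not enter the test on FPKM, and their groups overlap. In the limma-voom fit on reads they were tested and not called. By mean over the 6 libraries Dnah8 exceeded Dnah5 by 590-fold, and Dnah17 exceeded Dnah9 by 118-fold and Dnah11 by 882-fold. These are levels per deposited gene length.

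For Dnah8 the deposited length was 14583 bases, where GENCODE M21 gives 26820 exon bases. With the GENCODE length and the same reads its mean would be 87.9 FPKM in place of 162 FPKM, still the highest of the axonemal heavy chains. The other length that differed was that of Dync2li1, 1324 bases against 1869, and 34 of the 36 genes had identical coordinates and length in both.

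**Figure D2:**
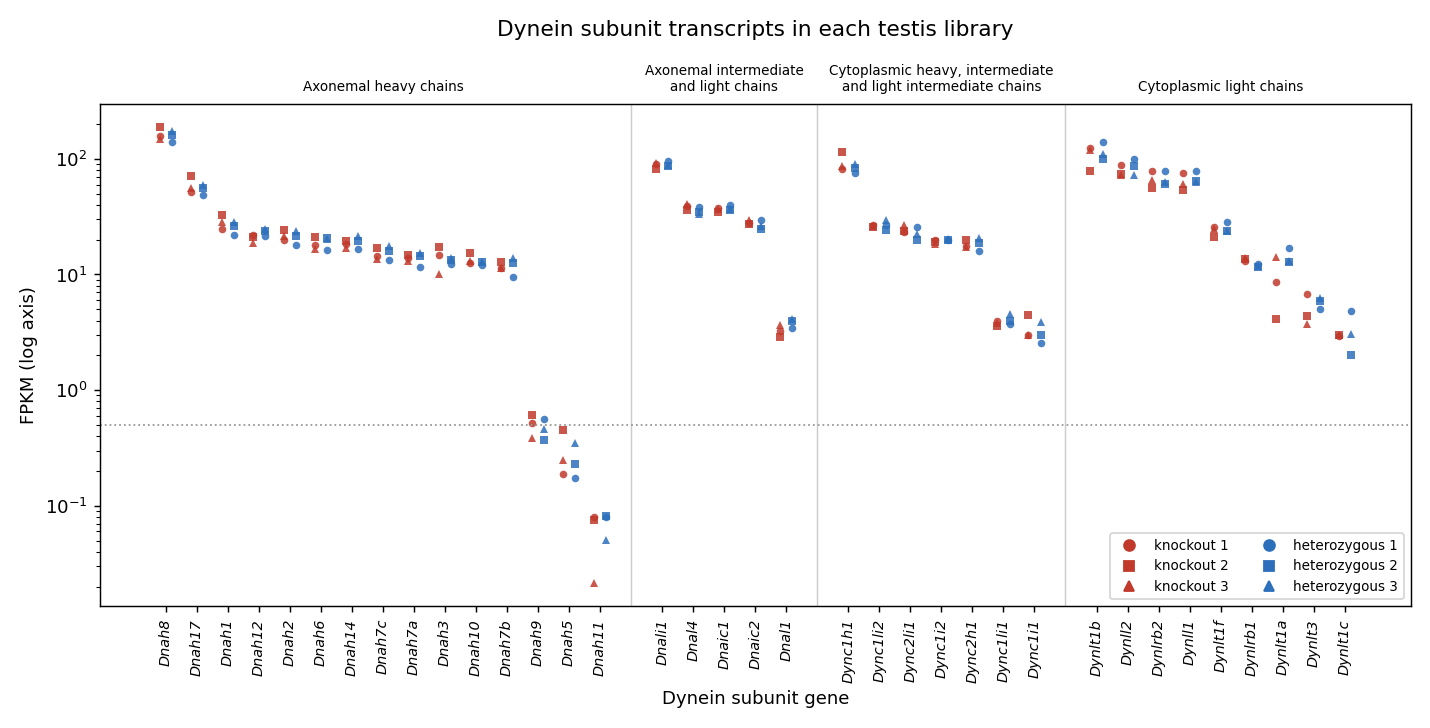
FPKM (log axis) of the 36 dynein genes in each library, knockout in red on the left and heterozygous in blue on the right of each gene, in 4 classes. The dotted line marks 0.5 FPKM, the mean needed for testing, and the Dnah9, Dnah5 and Dnah11 means lie under it.

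The inner arm heavy chains formed a narrow band. The 9 of them had mean levels of 11.9 to 27.1 FPKM, a 2.27-fold range, with single libraries between 9.45 and 32.5 FPKM. Dnah1, whose loss in humans gives short and irregular flagella, was the highest. Dnah1 was at 24.8, 32.5 and 28.5 FPKM in KO1 to KO3 and at 22.1, 26.3 and 28.3 FPKM in Het1 to Het3 (log2 difference 0.16, SE 0.13, limma adjusted p = 0.868). Dnah12 was at 22.1, 21.3 and 18.7 FPKM in KO1 to KO3 and 21.4, 23.9 and 24.9 FPKM in Het1 to Het3 (-0.17, SE 0.10, adjusted p = 0.868). The KO mean was higher for Dnah1 and lower for Dnah12, and in both genes the groups overlap. Dnah10, which forms the inner arm with a pair of motor heads together with Dnah2, was at 12.7, 15.4 and 13.0 FPKM in KO1 to KO3 and at 12.1, 12.7 and 12.9 FPKM in Het1 to Het3 (0.11, SE 0.10, adjusted p = 0.868). Dnah2, Dnah6, Dnah14 (not placed in an arm here), Dnah7a, Dnah7b, Dnah7c and Dnah3 had log2 differences between -0.07 and 0.07. The Dnah7 copies share sequence, with 54.2% of the 31-base words of Dnah7a, 40.1% of those of Dnah7b and 61.6% of those of Dnah7c found in other genes, so their separate values are uncertain. Of Dnah3 exon bases 10.5% overlap Lyrm1 on the opposite strand. Whether the authors counted reads by strand is not stated in the labels, and 16 of the 36 dynein genes have exons that overlap an antisense neighbour.

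Of the 5 intermediate and light chains of the axoneme, 2 had higher and 3 lower means in KO, and 0 passed. Dnali1, an inner arm light intermediate chain, was the highest, at 90.4, 81.7 and 91.7 FPKM in KO1 to KO3 and at 95.3, 86.1 and 87.6 FPKM in Het1 to Het3 (log2 difference -0.03, SE 0.09, limma adjusted p = 0.952). Dnaic1, an outer arm intermediate chain that helps anchor the arm, was at 37.4, 34.9 and 36.6 FPKM in KO1 to KO3 and at 40.0, 36.04 and 37.2 FPKM in Het1 to Het3 (-0.05, SE 0.08, adjusted p = 0.900). Its partner Dnaic2 averaged 28.3 ± 1.35 FPKM in KO and 27.0 ± 2.38 FPKM in Het (SD, n = 3 each). Dnal4, a light chain, was at 39.2, 36.2 and 40.9 FPKM in KO1 to KO3 and 38.5, 34.4 and 33.6 FPKM in Het1 to Het3 (0.12, SE 0.09, adjusted p = 0.868). Dnal1, which binds an outer arm motor domain, was the lowest, at 3.27, 2.91 and 3.66 FPKM in KO1 to KO3 and 3.46, 3.96 and 4.12 FPKM in Het1 to Het3 (-0.18, SE 0.11, adjusted p = 0.868). All 5 overlap between the groups.

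Among cytoplasmic heavy, intermediate and light intermediate chains, the dynein 1 motor stood far above the rest. Dync1h1, the heavy chain of dynein 1 (chromosome 12, 110601452 to 110666945), was at 82.1, 116 and 87.1 FPKM in KO1 to KO3 and 75.5, 83.4 and 89.5 FPKM in Het1 to Het3, with KO2 the highest library (log2 difference 0.18, SE 0.15, limma adjusted p = 0.868). Dync2h1, the heavy chain of dynein 2, averaged 18.2 ± 1.35 FPKM in KO and 18.5 ± 2.31 FPKM in Het (SD, n = 3 each). Dync1h1 thus exceeded Dync2h1 5.20 ± 0.6002-fold in KO and 4.48 ± 0.187-fold in Het. Of the light intermediate chains, Dync1li2 was at 26.7, 25.7 and 26.3 FPKM in KO1 to KO3 and at 26.7, 24.3 and 29.4 FPKM in Het1 to Het3 (-0.03, SE 0.09, adjusted p = 0.956). Dync2li1, that of dynein 2, was at 23.3, 23.7 and 26.8 FPKM in KO1 to KO3 and 25.8, 19.9 and 22.6 FPKM in Het1 to Het3 (0.11, SE 0.12, adjusted p = 0.869). Dync1li2 was 6.94 ± 0.212-fold above its paralogue Dync1li1 in KO and 6.57 ± 0.573-fold in Het. Of the intermediate chains, which link the motor to dynactin, Dync1i2 was 5.67 ± 1.24-fold above Dync1i1 in KO and 6.55 ± 1.30-fold in Het.

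Of the 9 cytoplasmic light chains, 1 had a higher and 8 a lower mean in KO (median log2 difference -0.13), and 0 passed. The 8 include Dynlt1a, Dynlt1b, Dynlt1c and Dynlt1f, near-identical copies whose separate values are uncertain. Without these copies, a step added after the data were seen, the median was also -0.13. The median over all 9 depended on single libraries, at 0.01 without Het1, -0.02 without KO2, -0.08 without KO3 and -0.22 without KO1. The start of each coding sequence is shown for a pair whose levels differ and a pair whose levels are close, from the GENCODE M21 transcripts (GRCm38), with capitals where the 2 paralogues differ and every other base in lower case.
Dynlrb1: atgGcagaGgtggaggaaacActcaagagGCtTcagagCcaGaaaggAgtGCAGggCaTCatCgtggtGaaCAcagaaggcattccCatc
Dynlrb2: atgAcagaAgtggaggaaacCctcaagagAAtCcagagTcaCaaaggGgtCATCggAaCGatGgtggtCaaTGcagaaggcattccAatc
Dynll1: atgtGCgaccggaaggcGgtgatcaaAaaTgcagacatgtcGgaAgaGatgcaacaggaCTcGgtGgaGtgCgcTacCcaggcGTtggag
Dynll2: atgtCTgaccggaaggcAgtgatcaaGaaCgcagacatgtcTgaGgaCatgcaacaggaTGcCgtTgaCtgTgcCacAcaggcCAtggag

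Dynlrb1, on chromosome 2, and Dynlrb2, on chromosome 8, differ at 81 of 288 coding bases, of which 21 are in the 90 shown. Dynll1, on chromosome 5, and Dynll2, on chromosome 11, differ at 50 of 267 coding bases, of which 18 are in the 90 shown. Neither pair has a 31-base word in common, so sequence of that length is not shared between its copies. Dynlrb light chains, the roadblock family, dimerise on the intermediate chains. Dynlrb2 was at 77.8, 55.6 and 65.4 FPKM in KO1 to KO3 and 78.5, 60.8 and 63.2 FPKM in Het1 to Het3 (log2 difference -0.03, SE 0.15, limma adjusted p = 0.974). Dynlrb1 was lower in every library, at 13.2, 13.5 and 14.0 FPKM in KO1 to KO3 and 12.4, 11.6 and 11.8 FPKM in Het1 to Het3. The 3 KO values lie above the 3 Het values, from 237 to 275 reads in KO and 206 to 228 reads in Het, but the gene did not pass the test (0.17, SE 0.08, unadjusted p = 0.0682, adjusted p = 0.868). The Dynlrb2 to Dynlrb1 ratio was 4.90 ± 0.925 in KO and 5.64 ± 0.594 in Het (SD, n = 3 each), with groups overlapping.

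Dynll light chains, the LC8 family, also act as hubs that dimerise many other proteins. Dynll2 was at 87.8, 74.6 and 72.1 FPKM in KO1 to KO3 and at 99.4, 86.6 and 72.4 FPKM in Het1 to Het3 (log2 difference -0.13, SE 0.14, limma adjusted p = 0.870). Dynll1 averaged 63.3 ± 11.7 FPKM in KO and 68.9 ± 8.58 FPKM in Het (SD, n = 3 each). Dynlt3, a Tctex-type light chain, was at 6.75, 4.37 and 3.74 FPKM in KO1 to KO3 and 5.05, 5.91 and 6.30 FPKM in Het1 to Het3, with KO1 the highest library of all 6 (-0.21, SE 0.19, adjusted p = 0.868).

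The 4 Dynlt1 genes, copies of the Tctex-type light chain gene on chromosome 17, included the dynein gene of widest spread, Dynlt1a, and their separate values are uncertain because the copies are nearly identical. Their 339-base coding sequences are the same except at 1 base: Dynlt1a, Dynlt1c and Dynlt1f carry A21C relative to Dynlt1b, counted from 1 at the A of the start codon, as does Dynlt1-ps1, a processed pseudogene on chromosome 6 that is not among the 36 genes. The differing base is in capitals in the first 90 bases.
Dynlt1a: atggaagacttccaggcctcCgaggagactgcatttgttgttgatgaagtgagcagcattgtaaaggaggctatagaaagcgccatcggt
Dynlt1b: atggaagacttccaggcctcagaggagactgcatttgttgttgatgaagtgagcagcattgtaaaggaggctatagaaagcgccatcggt

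Of their distinct 31-base words, 78.6% in Dynlt1a, 86.9% in Dynlt1b, 92.4% in Dynlt1c and 92.7% in Dynlt1f occur in transcripts of other genes, and 13.6% of Dynlt1a exon bases overlap Tmem181a on the opposite strand. Dynlt1a (chromosome 17, 6306340 to 6317500) was at 8.54, 4.14 and 14.1 FPKM in KO1 to KO3 and 17.0, 12.8 and 13.0 FPKM in Het1 to Het3. KO3 lies inside the range of the Het libraries and KO1 and KO2 lie below it. The log2 difference was -0.74 (SE 0.36, unadjusted p = 0.0777, limma adjusted p = 0.868), and -0.33 without KO2. Dynlt1b was at 125, 78.6 and 119 FPKM in KO1 to KO3 and 139, 100.4 and 109 FPKM in Het1 to Het3 (-0.13, SE 0.21, adjusted p = 0.905). Dynlt1f and Dynlt1c had log2 differences of -0.07 and -0.06.

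Dynlt1a received 15.4%, 10.6% and 23.9% of the reads counted on the 4 genes in KO1 to KO3, and 24.1%, 24.2% and 23.4% in Het1 to Het3. The pooled reads of the 4 genes and Dynlt1-ps1 made up 0.0449%, 0.0337% and 0.0491% of all reads in KO1 to KO3 and 0.0491%, 0.0420% and 0.0444% in Het1 to Het3, and the groups overlap. The pseudogene alone was listed at 648, 502 and 596 FPKM in KO1 to KO3 and at 609, 570 and 566 FPKM in Het1 to Het3. It shares 100% of its words with these genes.

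**Figure D3:**
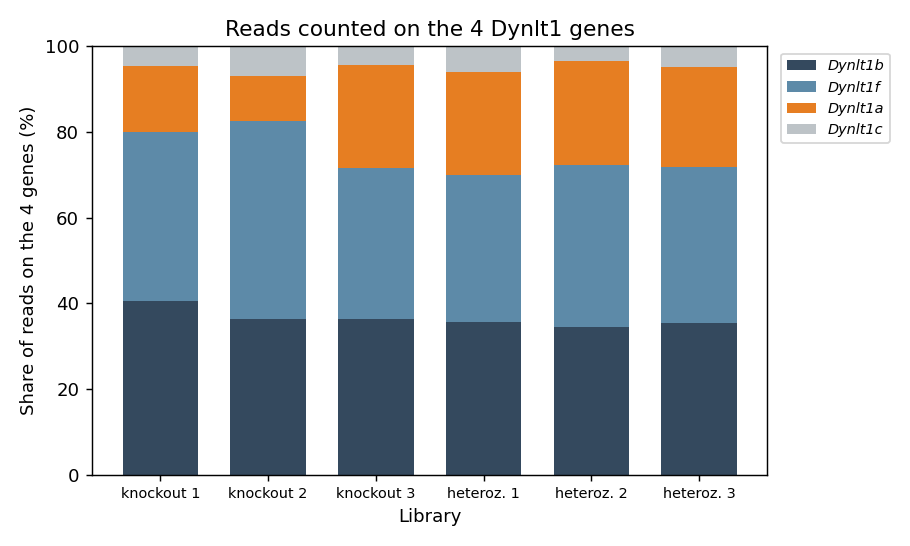
Share of the reads counted on Dynlt1b, Dynlt1f, Dynlt1a and Dynlt1c in each library (percent, stacked to 100), knockout on the left. The Dynlt1a share is 10.6% to 23.9% in the knockout libraries and 23.4% to 24.2% in the heterozygous ones.

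Within both genotypes, the long heavy chains and the shorter dynein genes differed in the libraries where they stood highest and lowest. Of the 14 tested genes of at least 12000 bases, all heavy chains, 8 were highest in KO2 and 6 in Het3, and 12 were lowest in Het1. Of the 19 shorter genes, 9 were highest in Het1 and 9 lowest in KO2. As a deviation from the mean of the 6 libraries on the log2 scale, the median axonemal heavy chain stood at -0.04, 0.18 and -0.10 in KO1 to KO3 and -0.20, 0.03 and 0.13 in Het1 to Het3. The median cytoplasmic light chain stood at 0.11, -0.22 and -0.02 in KO1 to KO3 and 0.26, -0.05 and -0.04 in Het1 to Het3. The heavy chains were thus high and the light chains low in KO2, and the reverse held in Het1. All 662 protein-coding genes over 12000 bases had medians of -0.02, 0.09 and -0.04 in KO1 to KO3 and -0.07, 0.01 and 0.04 in Het1 to Het3, the same order with less spread. The 662 protein-coding genes of up to 1000 bases stood at 0.09, -0.20 and -0.01 in KO1 to KO3 and 0.19, -0.03 and -0.03 in Het1 to Het3. Most cytoplasmic light chains are longer than that, with a median length of 2736 bases. The 4173 protein-coding genes in the length bin that holds this median stood at 0.02 in KO2 and 0.01 in Het1. Dynlrb2, at 556 bases, and Dynlt1b, at 771 bases, fall in the bin of up to 1000 bases. What part length had in the light chain values was not tested. The axonemal genes had a median length of 13776 bases and the cytoplasmic genes of 3702, so the 2 sets also differ in length. The 5 axonemal intermediate and light chains are shorter, at 2133 to 6938 bases. What part length had in a difference between the sets was not tested. With the length trend of all genes removed, a step added after the data were seen, the median heavy chain stood at 0.09 in KO2 and -0.13 in Het1, less far from 0 than before. The median light chain stood at -0.21 in KO2 and 0.22 in Het1, close to its values with the trend left in.

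**Figure D4:**
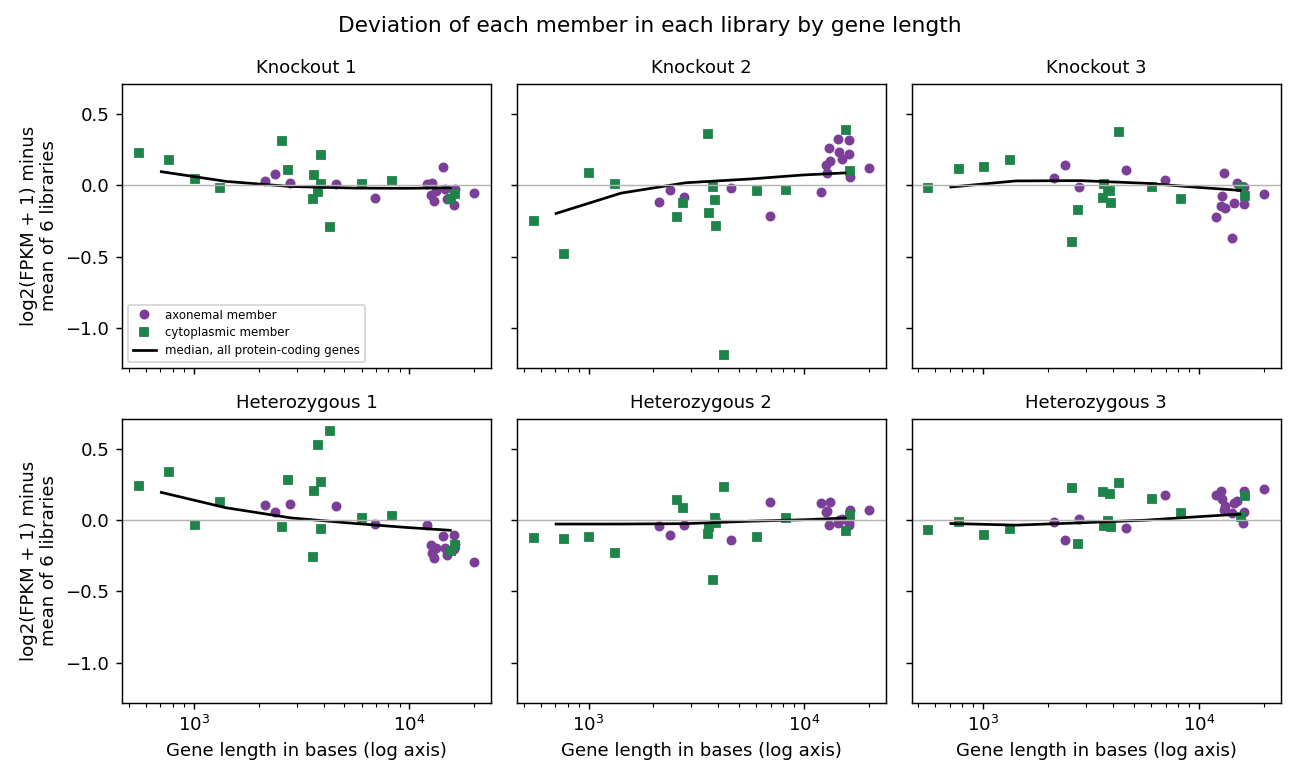
Deviation of each tested dynein gene from its mean over the 6 libraries, in log2(FPKM + 1), against gene length in bases (log axis), 1 panel per library with the knockout libraries on top. The black line is the median of all protein-coding genes by length, and it slopes up in knockout 2 and down in heterozygous 1. Some dynein genes lie far from it, such as Dynlt1a (4267 bases) at -1.19 in knockout 2.

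Among other genes of the dynein pathway 0 were called in each list, as over all genes (0%). Among dynein subunits under other names, 9 of 10 were tested (4 higher and 5 lower in KO, median log2 difference -0.01). The dynein 2 light chain gene Tctex1d2 averaged 24.9 ± 3.76 FPKM in KO and 30.2 ± 2.70 FPKM in Het (SD, n = 3 each, log2 difference -0.27). Tctex1d1 averaged 10.5 ± 4.34 FPKM in KO and 15.0 ± 3.39 FPKM in Het (-0.51). Of the assembly factors, which fold and pre-assemble arms in the cytoplasm, 13 of 14 were tested (7 higher and 6 lower, median 0.01). Among them Pih1d3 averaged 4.98 ± 1.26 FPKM in KO and 6.89 ± 0.903 FPKM in Het (-0.42), and Dnaaf5 averaged 24.7 ± 2.34 FPKM in KO and 22.0 ± 0.689 FPKM in Het (0.16). The 6 genes of the outer arm docking complex, which seats the arm on the doublet, had 3 higher and 3 lower (median 0.00), with Ccdc114 at 0.17 and Efcab1 at -0.25. The 12 dynactin subunits, which make dynein 1 processive, had 7 higher and 5 lower (median 0.03), with Actr1b at 0.16 and Actr10 at -0.18. Of the regulators and cargo adaptors 18 of 21 were tested, 8 higher and 10 lower (median 0.00), with Nudc at 0.26 and Bicdl1 at 0.23. The limma adjusted p of these 10 named genes was 0.868 or 0.869.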

How the data were processed

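RNA of 6 mouse testis samples was sequenced, 3 labelled Tmc7 knockout and 3 heterozygote, and the sample titles gave groups and replicate numbers. Trizol extraction and a SMARTER mRNA-Seq library kit were used, per the labels. The authors deposited FPKM per gene with gene length and position. The build is GRCm38 (mm10), per the submitters' processing notes. Aligner, counter, annotation and strand handling were not given in the sources used.

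FPKM times length gave whole reads for 100% of values within a tolerance of 0.02 reads. All genes averaging 0.5 FPKM or more entered limma 3.58.1 (R 4.3.3) as log2(FPKM + 1), with group as the only term, eBayes with a trend, and a Benjamini-Hochberg adjusted p under 0.05 over 19168 genes. The test was first tried on simulated independent counts. These had no shifts shared by genes of 1 length or cell type, so the trial does not cover such shifts. Class medians were given no test.

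Alternatives were pseudocounts of 0.1 and 0.01, no filter, a mean of at least 2 FPKM, median-of-ratios and quantile normalization, a replicate block, limma-voom on the recovered reads (mean of at least 10), and each library left out. Removal of a length trend and omission of the Dynlt1 genes were added after seeing the data. Sequence sharing is the percent of distinct 31-base words in the GENCODE M21 transcripts of a gene that also occur in other genes.

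Members and lists were chosen with earlier results of these data known. Genes given with all 6 values were the 3 of highest mean FPKM in each class and the 3 of smallest unadjusted p in each direction among axonemal and among cytoplasmic genes. Of each pathway list the 2 genes of smallest p were named, with means or the log2 difference. Dnah9, Dnah5 and Dnah11 were added because they fell under the filter.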

Additional observations from a re-analysis of the deposited data

How the results depend on the processing

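The count of dynein genes called was 0 under all 16 alternatives, of which median-of-ratios scaling returned values identical to the main ones and so tests nothing further. Over all genes it was 0 except for limma-voom on the recovered reads, which called 1. The axonemal median log2 difference ranged from -0.03 to 0.09 when each library was left out in turn, and the cytoplasmic median from -0.10 to -0.01. Of 18 named dynein genes, 12 kept their direction under all 15 settings tried for each. The changed filters, the replicate block and median-of-ratios scaling gave the same log2 differences as the main fit. Those settings therefore do not test the direction. With quantile normalization Dnali1 changed direction to 0.036 and Dynlrb2 to 0.028, and Dynlrb2 was at 0.067 with the length trend removed, a setting chosen after seeing the data. Leaving out each library in turn gave log2 differences of -0.050 to 0.13 for Dnah8, -0.020 to 0.21 for Dnah17, -0.060 to 0.023 for Dnali1, -0.25 to 0.082 for Dynlt1b, -0.15 to 0.088 for Dynlrb2 and -0.093 to 0.040 for Dync1li2. The cause of these changes was not tested. For Dynlt1a it was -1.11 without KO3 and -0.33 without KO2. The lowest adjusted p of a named gene under any setting was 0.19, for Dynlt3 without KO1.

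With the replicate number as a block, 0 dynein genes were called and the smallest adjusted p among them was 0.662. The block put 1411 genes (7.36%) at an unadjusted p under 0.05, Dynlt1a among them. Deviations of same-numbered KO and Het libraries from their group means correlated at 0.286, 0.0413 and 0.198 for numbers 1 to 3. Of differently numbered libraries, Het1 correlated at -0.202 with KO2 and -0.126 with KO3. Het2 was at 0.0312 with KO1 and -0.0753 with KO3, and Het3 at -0.322 with KO1 and 0.170 with KO2. The labels do not say whether equal numbers mark pairs, and the main test did not treat them as pairs. Depth limits the transcripts near 0, such as Dnah11 with 6 to 22 reads a library.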
